A study of Homo sapiens with 10 samples.

Results

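Eph receptors and ephrins are described here across 4 lines of the human prostate cancer cell line PC3. Of the 23170 gene entries measured by RNA-seq, 10 genes were taken by name: the receptors EPHA1, EPHA2, EPHA4, EPHA5, EPHB2, EPHB3 and EPHB4, and the ligands EFNA1, EFNB1 and EFNB2. Each of the 10 has 1 entry of its own in every gene table. They are 10 of the 22 Eph and ephrin genes and were picked by name with earlier results of these data known.

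The study asked how the zinc-finger transcription factors OVOL1 and OVOL2 act on mesenchymal prostate cancer cells. PC3-Epi (2 samples) is a luciferase-expressing subpopulation of PC3 with a stable epithelial shape. PC3-EMT14 (3 samples) is 1 mesenchymal subpopulation, isolated after PC3-Epi cells were grown together with IL4-treated macrophages from CD14+ monocytes, and it carries the same luciferase. For PC3-EMT14-OVOL1 (3 samples) and for PC3-EMT14-OVOL2 (2 samples), PC3-EMT14 was transduced with a lentiviral construct that overexpresses the named factor. The sample labels name no empty vector for PC3-EMT14, so transduction and the factor cannot be told apart. PC3-EMT14 is a single line, so what is particular to it and what belongs to a mesenchymal state cannot be told apart either.

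Levels are in FPKM, a count of sequenced fragments scaled to transcript length and here to the upper quartile of fragment counts rather than their total. The scaling is meant to let levels be set side by side between genes and between the lines of 1 table. Only 1 FPKM value per line, combined over its samples, stands in each table. No spread between samples and no depth could therefore be computed, no test was run on any difference, and neighbours in an order of levels cannot be said to differ beyond their spread. A gene was counted as past 2-fold when its higher value was at least 1 FPKM and the ratio of both values was at least 2 in either direction. Each table was normalized on its own, and the 10 genes' PC3-EMT14 values differed between the 3 tables that hold them by 3.06 to 3.27% of their mean.

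Eph receptors are the largest family of receptor tyrosine kinases and bind ephrins on the surface of neighbouring cells. A-type ephrins are held in the membrane by a lipid anchor and B-type ephrins by a transmembrane segment, so both partners can signal, forward through the receptor and in reverse through the ephrin. The system sets cell repulsion, adhesion and tissue boundaries, and in epithelia and carcinomas it acts on cell contacts, migration and invasion.

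The lines carried the labelled factors. OVOL1 went from 0.0238 FPKM in the PC3-EMT14 line to 11.3 in its OVOL1 derivative, and OVOL2 from 0.374 to 831 FPKM in the OVOL2 derivative. PC3-Epi held 4.25 FPKM of OVOL1 and 9.91 FPKM of OVOL2. The adhesion gene CDH1 (E-cadherin) was at 0.981 FPKM in PC3-EMT14, 16.2 in the OVOL1 line, 39.2 in the OVOL2 line and 50.6 in PC3-Epi. Of the other epithelial markers, EPCAM, KRT8, KRT18 and OCLN were also lowest in PC3-EMT14 and highest in PC3-Epi. KRT19 was at 656, 608, 862 and 742 FPKM and CLDN4 at 265, 277, 306 and 212 in the same lines. The mesenchymal markers VIM and CDH2 were highest in PC3-EMT14, at 265 and 17.6 FPKM, with 42.5 and 11.3 in PC3-Epi. FN1 was at 36.0, 18.4, 16.5 and 33.8 FPKM and SPARC at 4.23, 4.92, 1.68 and 2.17. Of 12 macrophage markers, the lysosomal gene CD68 alone reached 1 FPKM in any line, and the summed levels of the list were 53.4, 51.7, 58.4 and 13.6 FPKM in the same order of lines. CD68 itself gave 53.0, 51.2, 57.8 and 13.2 FPKM of these sums, TYROBP was listed at 0 in all lines other than PC3-EMT14, and PTPRC and CSF1R were under 0.1 FPKM throughout. The prostate luminal genes KLK3 and KLK2 were listed at 0 in every line.

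The starts of 3 genes are shown because they hold the letters CACCTG, the E-box bound by the EMT factor ZEB1. CACCTG was searched on both strands in RefSeq windows (GRCh38.p14) from 250 bases before to 50 bases after each start. All 10 genes had at least 1 such window, 13 windows in all. Capitals mark the E-box, which reads CAGGTG where it lies on the opposite strand. The 250 bases before each start follow, 5′ to 3′ along the gene, at positions found by exact match to GRCh37 (hg19).
EPHA1, chr7:143105950-143106199, minus strand, within an intron of the antisense gene EPHA1-AS1: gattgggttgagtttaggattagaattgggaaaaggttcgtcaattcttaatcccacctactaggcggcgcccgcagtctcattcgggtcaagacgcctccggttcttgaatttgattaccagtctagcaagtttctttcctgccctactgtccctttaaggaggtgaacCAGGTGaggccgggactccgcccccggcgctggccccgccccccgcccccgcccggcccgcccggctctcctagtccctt
EFNB2, chr13:107188011-107188260, minus strand, outside annotated genes: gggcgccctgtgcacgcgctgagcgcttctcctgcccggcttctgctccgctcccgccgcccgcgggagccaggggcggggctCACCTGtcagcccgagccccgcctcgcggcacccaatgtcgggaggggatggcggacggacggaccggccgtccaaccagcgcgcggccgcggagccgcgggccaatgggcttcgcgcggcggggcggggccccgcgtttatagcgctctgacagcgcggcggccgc
EPHB2, chr1:23037081-23037330, plus strand, outside annotated genes: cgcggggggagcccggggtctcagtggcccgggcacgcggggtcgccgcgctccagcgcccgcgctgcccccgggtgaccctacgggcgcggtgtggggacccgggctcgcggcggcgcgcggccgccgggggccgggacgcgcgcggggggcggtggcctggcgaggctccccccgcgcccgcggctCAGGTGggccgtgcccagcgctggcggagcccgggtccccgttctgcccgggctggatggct

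The E-box lies at −80 to −75 from the start in EPHA1, −167 to −162 in EFNB2 and −62 to −57 in EPHB2. It was found in 4 of the 13 windows, the fourth being a second EPHB2 window shifted by 1 base, and in 20.6% of all 35116 RefSeq windows. The OVO core CCGTTA was in none of the 13 and in 3.07% of all windows, and the longer OVOL2 consensus was in none of the 13 and in 0.980% of all. TATAAA was in 1 of the 13, at −30 to −25 in EFNB2 on the strand opposite to the gene (tttata in the printed sequence), and in 11.5% of all. A match describes letters in a window and no binding was measured here. ZEB1, a zinc-finger repressor of epithelial genes, was at 7.43 FPKM in PC3-EMT14, 4.25 in the OVOL1 line, 1.77 in the OVOL2 line and 0.130 in PC3-Epi.

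EPHA1 had the widest range of the 10 genes in fold. The receptor, which prefers A-type ephrins, was at 0.164 FPKM in PC3-EMT14, 2.89 in PC3-EMT14-OVOL1, 6.17 in PC3-EMT14-OVOL2 and 19.5 in PC3-Epi. Against the PC3-EMT14 value of the same table these are 17.6-fold, 38.0-fold and 117-fold higher levels, or 4.14, 5.25 and 6.86 on the log2 scale. In order of log2 difference from the highest, EPHA1 was number 29 of 12111 genes in the OVOL1 comparison, 29 of 12226 in the OVOL2 comparison and 38 of 12344 in the PC3-Epi comparison, among genes with at least 1 FPKM in a line and a value above 0 in both. All 3 folds rest on a PC3-EMT14 level far below 1 FPKM, and with 1 FPKM added to both values the log2 differences were 1.74, 2.62 and 4.14. EPHA1 reached 1 FPKM only through the other lines, so it had to differ to be counted.

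EPHA1 is listed under XLOC_020348 with the locus chr7:143078360-143220540 (hg19), which spans more than the annotated gene at chr7:143087382-143105949 on the minus strand. The same locus is given for ZYX, which encodes the focal adhesion protein zyxin, for the antisense LOC285965 and for the taste receptor genes TAS2R60 and TAS2R41. ZYX was at 238 FPKM in PC3-EMT14, 255 in the OVOL1 line, 134 in the OVOL2 line and 191 in PC3-Epi, an order unlike that of EPHA1. LOC285965 was below 0.1 FPKM in every line, at 0.0179, 0.0226, 0.0228 and 0.0961. The study's stated alignment and counting options set no library type, which leaves the unstranded default, so reads could not be assigned by strand where EPHA1 and its antisense partner overlap. In the annotation that is from 143104877 to 143105949, the 5′ end of EPHA1, and the rest of the gene lies outside it.

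EPHA4 and EPHA5 ran the other way. EPHA4, a receptor that binds ephrins of both types, was at 1.94 FPKM in PC3-EMT14, 0.619 in the OVOL1 line, 0.413 in the OVOL2 line and 0.251 in PC3-Epi. EPHA5, an A-type receptor best known from axon guidance, was at 1.98, 0.625, 0.162 and 0.150 FPKM in the same lines. Both were highest in PC3-EMT14 and lowest in PC3-Epi. EPHA4 was thus 3.14-fold, 4.66-fold and 7.90-fold lower than in PC3-EMT14 (log2 −1.65, −2.22 and −2.98), and EPHA5 3.16-fold, 12.1-fold and 13.5-fold lower (log2 −1.66, −3.59 and −3.75). Counted from the lowest log2 difference, EPHA5 was number 41, 9 and 111 and EPHA4 number 42, 44 and 177 in the OVOL1, OVOL2 and PC3-Epi comparisons. These receptors are scarce in all 4 lines, passed the floor only through PC3-EMT14, and are not counted when the floor is 5 FPKM. With 1 FPKM added the log2 differences were −0.86, −1.05 and −1.25 for EPHA4 and −0.87, −1.35 and −1.39 for EPHA5.

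EPHA4 is listed as XLOC_012728 at chr2:222282747-222437010 and EPHA5 as XLOC_015886 at chr4:66185281-66535653.

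EPHA2, the receptor most often tied to carcinoma, dominated the family. It was at 139 FPKM in PC3-EMT14, 163 in the OVOL1 line, 150 in the OVOL2 line and 107 in PC3-Epi, and it was the highest of the 10 genes in every line. The differences from PC3-EMT14 were small beside those of EPHA1, at 0.22, 0.12 and −0.42 on the log2 scale. Among all 23170 gene entries EPHA2 was number 514 in order of level in PC3-EMT14, 450 in the OVOL1 line, 460 in the OVOL2 line and 751 in PC3-Epi. It is listed as XLOC_001243 at chr1:16450832-16482582, and the antisense gene EPHA2-AS1 overlaps the 250 bases before its RefSeq start.

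**Figure D1:**
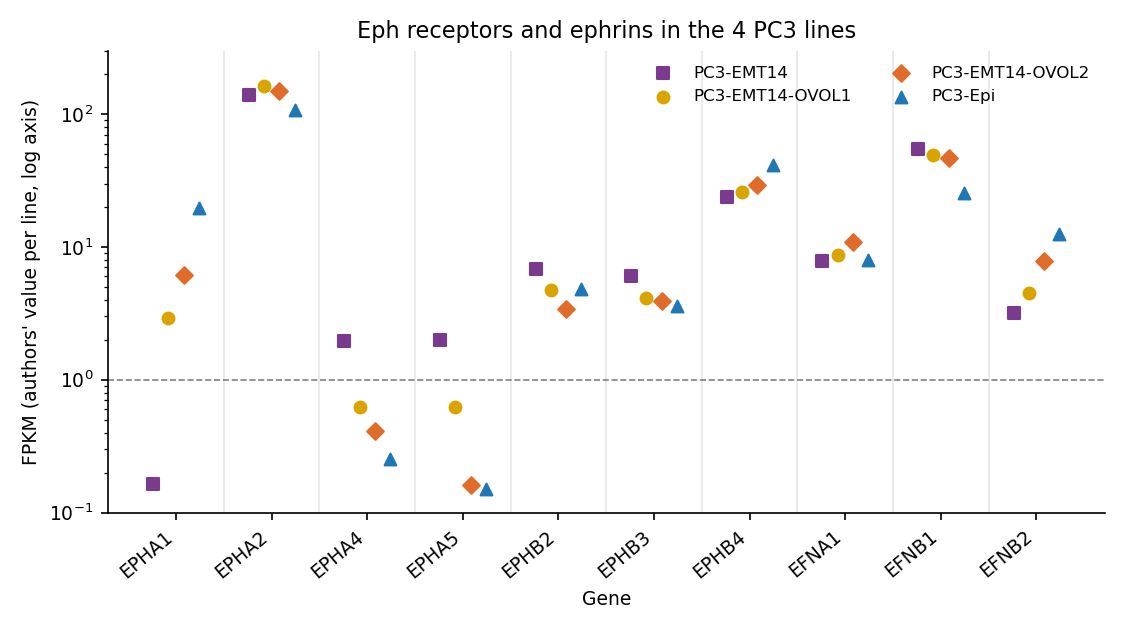
FPKM on a log axis for each of the 10 genes (horizontal axis), with 1 point per line and gene, pooled by the authors over 2 or 3 samples, and a dashed line at 1 FPKM. EPHA1 spans from 0.164 FPKM in PC3-EMT14 to 19.5 in PC3-Epi, EPHA4 and EPHA5 are highest in PC3-EMT14, and EPHA2 is above 100 FPKM in every line.

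The B-type receptors stayed within 2-fold of PC3-EMT14. EPHB4, the main receptor of ephrin-B2, was at 23.6 FPKM in PC3-EMT14, 26.1 in the OVOL1 line, 29.4 in the OVOL2 line and 41.3 in PC3-Epi, where it was 1.71-fold higher (log2 0.78). EPHB2 was at 6.76, 4.76, 3.42 and 4.82 FPKM, and its level in the OVOL2 line, 1.96-fold lower (log2 −0.97), lay just inside the 2-fold limit. EPHB3 was at 6.05, 4.14, 3.93 and 3.56 FPKM, with log2 differences of −0.55, −0.61 and −0.79. EPHB4 was thus lowest in PC3-EMT14, while EPHB2 and EPHB3, both known from the ordering of intestinal crypt cells, were highest there. Their loci are XLOC_020204 at chr7:100400187-100425143 for EPHB4, XLOC_000164 at chr1:23037331-23241823 for EPHB2 and XLOC_014700 at chr3:184279587-184300196 for EPHB3.

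Among the ligands, EFNB2 (ephrin-B2) was higher outside PC3-EMT14. It was at 3.18 FPKM in PC3-EMT14, 4.48 in the OVOL1 line, 7.83 in the OVOL2 line and 12.5 in PC3-Epi. The levels were 1.41-fold, 2.49-fold and 3.84-fold higher (log2 0.50, 1.32 and 1.94), so EFNB2 was past 2-fold with OVOL2 and in PC3-Epi. Its place from the highest log2 difference was 675, 347 and 361 in the 3 comparisons. EFNB2 is listed as XLOC_005887 at chr13:107142096-107187337, and the RefSeq start shown above lies 673 bases beyond the end of that locus on the 5′ side.

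EFNB1 (ephrin-B1), which signals in reverse through its cytoplasmic tail, was lower in PC3-Epi. Its levels were 54.3 FPKM in PC3-EMT14, 48.8 in the OVOL1 line, 47.0 in the OVOL2 line and 25.7 in PC3-Epi. PC3-Epi was 2.16-fold below the PC3-EMT14 value of its table (log2 −1.11), while the OVOL lines were within 0.19 of it on the log2 scale. EFNA1 (ephrin-A1), a ligand of EPHA2, was at 7.90, 8.76, 10.9 and 7.95 FPKM, with log2 differences of 0.15, 0.48 and −0.02. EFNB1 is listed as XLOC_022307 at chrX:68048840-68062006 and EFNA1 as XLOC_000723 at chr1:155100349-155107386.

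Counted together, 3 of the 10 genes were past 2-fold in PC3-EMT14-OVOL1 against PC3-EMT14 (EPHA1 higher, EPHA4 and EPHA5 lower), where 3.97% of all 12197 genes at the floor were. By direction, 2.43% of all genes were higher and 1.54% lower. With OVOL2 there were 4 of 10 (EPHA1 and EFNB2 higher, EPHA4 and EPHA5 lower) beside 7.35% of 12307 genes (4.42% higher and 2.93% lower). In PC3-Epi there were 5 of 10 (EPHA1 and EFNB2 higher, EPHA4, EPHA5 and EFNB1 lower) beside 15.7% of 12441 genes (7.37% higher and 8.34% lower). EPHA1, EPHA4 and EPHA5 passed the floor only through the line where they are high, and of the other 7 genes 0, 1 and 2 were past 2-fold in the same order of comparisons. Over the whole family the counts were 3 of 15 genes at the floor (20%), 4 of 15 (26.7%) and 6 of 16 (37.5%). Nothing about the 10 genes as a group is read from these shares. The median log2 difference of the 10 genes was −0.01, −0.04 and −0.47 in the 3 comparisons, and that of all genes 0.00, −0.04 and −0.01. The 3 comparisons share the PC3-EMT14 samples, so the repeated direction of EPHA1, EPHA4 and EPHA5 rests on the same PC3-EMT14 values.

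**Figure D2:**
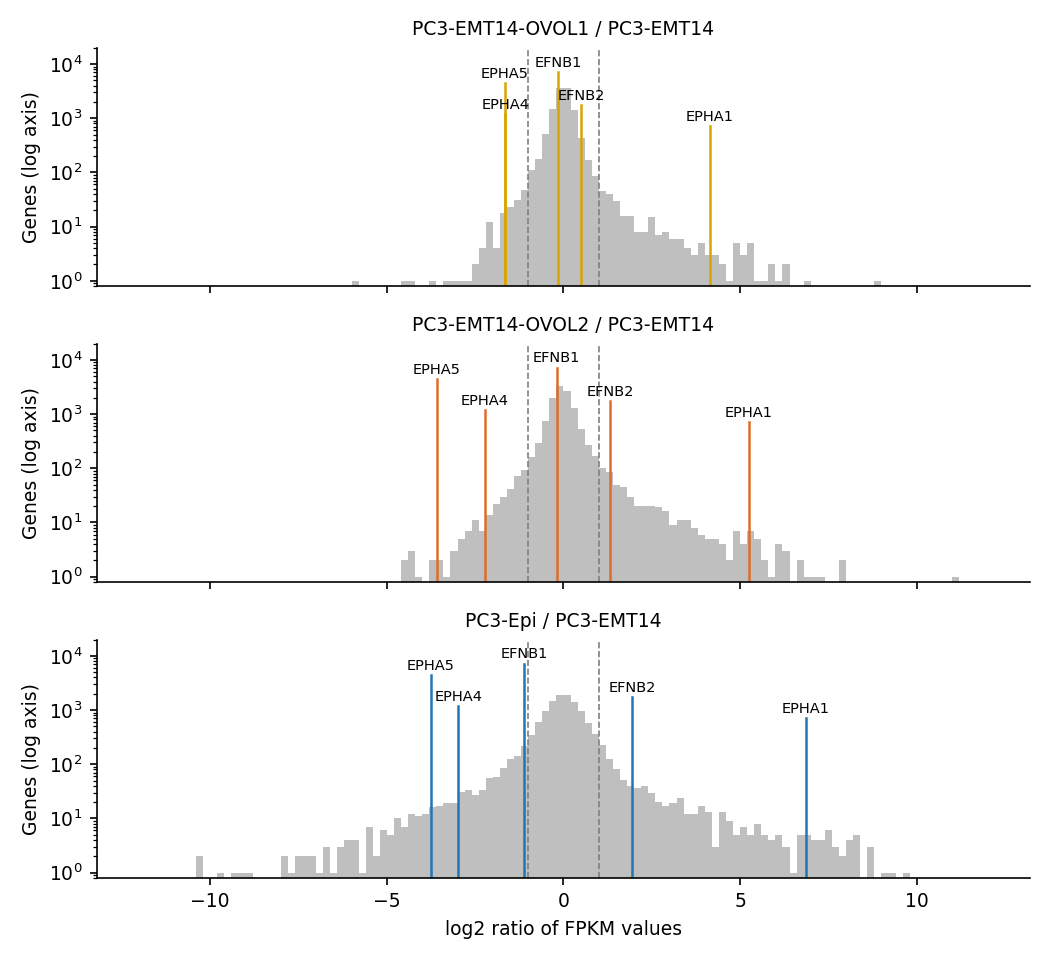
Histograms of the log2 ratio of FPKM values (horizontal axis) with the number of genes on a log axis, for all genes of at least 1 FPKM in a line and above 0 in both, 1 panel per comparison with PC3-EMT14. Dashed lines mark 2-fold and the heights of the coloured lines carry no value; EPHA1 is at 4.14, 5.25 and 6.86, and EFNB1 passes 2-fold in the PC3-Epi panel at −1.11.

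The OVOL lines were also compared with each other in a table of their own. EPHA1 was at 2.86 FPKM in PC3-EMT14-OVOL1 and 6.16 in PC3-EMT14-OVOL2, 2.16-fold higher with OVOL2 (log2 1.11). EFNB2 was at 4.43 and 7.83 FPKM, 1.77-fold higher (log2 0.82). EPHA1 was thus the 1 gene past 2-fold of the 8 at the floor, beside 3.08% of all 12188 genes (1.9% higher and 1.17% lower), and their median log2 difference was 0.08 against −0.04 over all genes. EPHA4, at 0.612 and 0.413 FPKM, and EPHA5, at 0.619 and 0.162, were below the floor in both lines. PC3-EMT14-OVOL2 held 831 FPKM of its factor and PC3-EMT14-OVOL1 held 11.3 of its own, so the factor and its dose cannot be told apart.

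The order of levels in a line moved with these genes. In PC3-EMT14 the order from the highest was EPHA2, EFNB1, EPHB4, EFNA1, EPHB2, EPHB3, EFNB2, EPHA5, EPHA4 and EPHA1. EPHA1 stood in place 10 there, in place 8 in the OVOL1 line, 6 in the OVOL2 line and 4 in PC3-Epi. In PC3-Epi the order was EPHA2, EPHB4, EFNB1, EPHA1, EFNB2, EFNA1, EPHB2, EPHB3, EPHA4 and EPHA5.

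Of the other 12 Eph and ephrin genes, 1 of 6 at the floor was past 2-fold in PC3-Epi (16.7%, close to the 15.7% of all genes). In the OVOL1 and OVOL2 lines it was 0 of 5 each, beside 3.97% and 7.35% of all genes. EFNA5 (ephrin-A5) was at 1.13 FPKM in PC3-EMT14 and 2.32 in PC3-Epi (log2 1.04), with 1.17 in the OVOL1 line and 0.964 in the OVOL2 line. EPHB6, a receptor without kinase activity, was at 13.1 FPKM in PC3-EMT14, 7.54 in the OVOL1 line, 9.84 in the OVOL2 line and 7.15 in PC3-Epi. The ligands EFNA4, EFNA3 and EFNB3 were at 14.5, 5.95 and 2.22 FPKM in PC3-EMT14 and stayed within 2-fold of it in all lines. EPHA6 reached 1.11 FPKM in PC3-Epi alone. EPHA3, EPHA7, EPHA8, EPHA10, EPHB1 and EFNA2 were below 1 FPKM in all 4 lines.

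**Figure D3:**
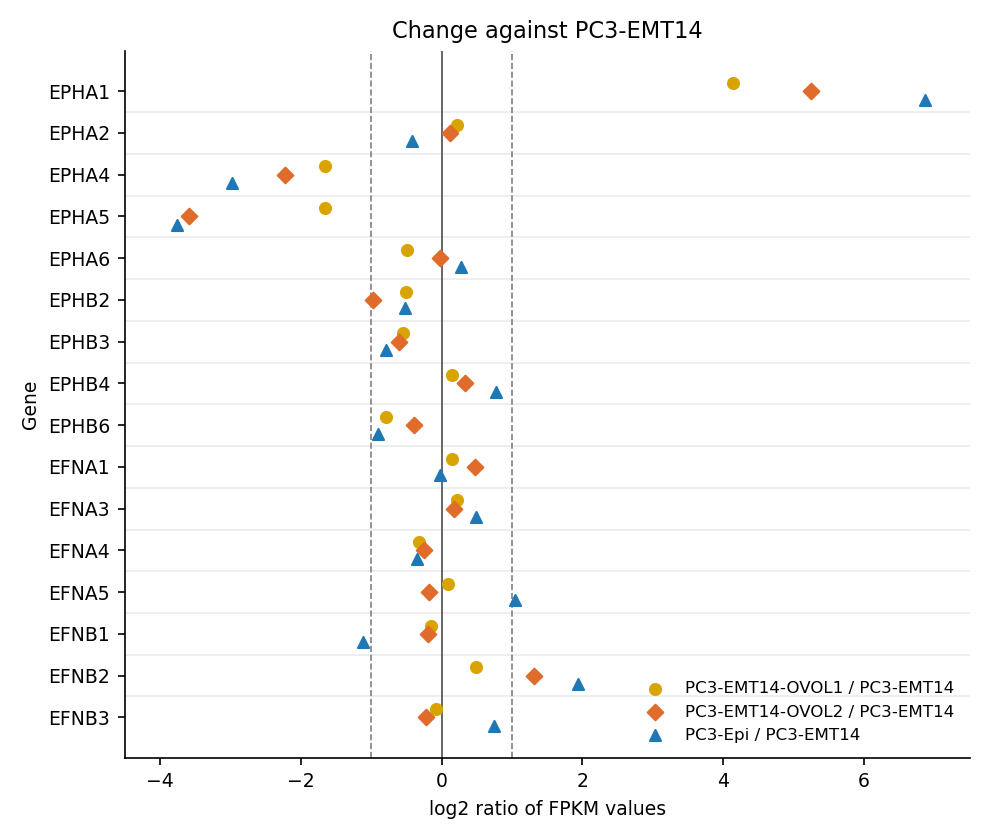
log2 ratio of the FPKM of each line to that of PC3-EMT14 (horizontal axis) for the Eph and ephrin genes at the floor (vertical axis), with 1 marker per comparison and dashed lines at 2-fold. EPHA1 is farthest to the right in all comparisons, EPHA5 farthest to the left, and most other genes lie within 2-fold.

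Summed over the 14 receptor genes, the levels were 195 FPKM in PC3-EMT14, 210 in the OVOL1 line, 205 in the OVOL2 line and 185 in PC3-Epi. EPHA2 gave 71.6%, 77.3%, 73.2% and 57.7% of these sums. The A-type receptors other than EPHA2 summed to 5.69, 5.15, 8.26 and 21.5 FPKM, of which EPHA1 gave 56.1% in the OVOL1 line, 74.7% in the OVOL2 line and 90.7% in PC3-Epi. In PC3-EMT14 the leading gene of that sum was EPHA5. The B-type receptors summed to 49.5, 42.5, 46.6 and 56.9 FPKM, with 47.6%, 61.3%, 63.0% and 72.7% from EPHB4.

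The ligand side was steadier for A-type than for B-type ephrins. The A-type ephrins summed to 29.5, 28.5, 30.6 and 30.5 FPKM in PC3-EMT14, the OVOL1 line, the OVOL2 line and PC3-Epi. The B-type ephrins summed to 59.7, 55.4, 56.7 and 41.9 FPKM, and EFNB1 gave 91.0%, 88.1%, 82.9% and 61.3% of them. The lower share in PC3-Epi combines less EFNB1 with more EFNB2. These are sums of RNA levels in pooled cells, in which fewer cells with a transcript and less transcript per cell cannot be told apart.

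**Figure D4:**
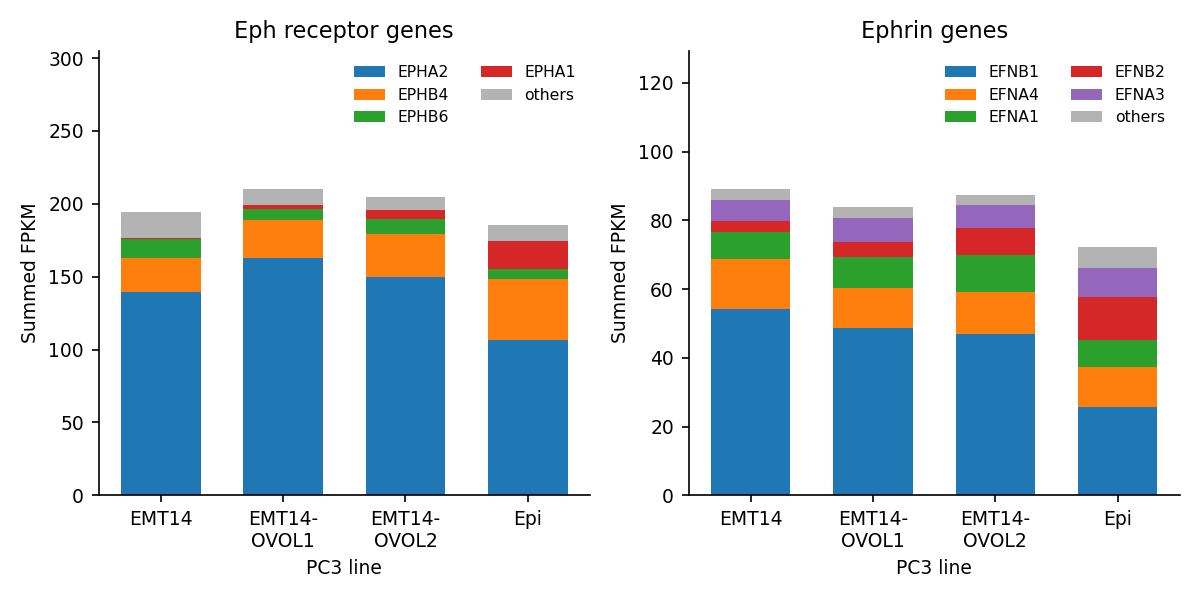
Summed FPKM (vertical axis, bars from 0) of the 14 Eph receptor genes (left) and the 8 ephrin genes (right) in the 4 lines, with each bar divided by gene. EPHA2 gives 71.6% of the receptor sum in PC3-EMT14 and 57.7% in PC3-Epi, and EFNB1 gives 60.9% and 35.5% of the ephrin sum.

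Isoforms were compared by their share of the gene's FPKM. EPHA5, EPHB2 and EFNA1 have 2 isoforms each in the tables, and the other 7 genes have 1. EPHA5 was below 1 FPKM outside PC3-EMT14 and was not counted. In the comparisons with PC3-EMT14, 0 of the 2 genes left, EPHB2 and EFNA1, shifted an isoform's share by 20 percentage points or more, beside 2.61% of 4710 genes for OVOL1, 4.63% of 4708 for OVOL2 and 6.15% of 4605 for PC3-Epi. The largest shift was in EFNA1, whose minor isoform TCONS_00001184 made up 11.8% of the gene in PC3-EMT14, 6.16% in the OVOL1 line, 24.1% in the OVOL2 line and 16.5% in PC3-Epi. The minor EPHB2 isoform stayed at or below 6.26% in all lines. The minor EPHA5 isoform, 8.86% of the gene in PC3-EMT14, was listed at 0 elsewhere, where the whole gene is below 1 FPKM.

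The signalling partners of Eph receptors were followed with a list of 48 genes. In the OVOL1 line 2 of 42 genes at the floor were past 2-fold, both higher, in the OVOL2 line 3 of 43, all higher, and in PC3-Epi 6 of 43, with 4 higher and 2 lower. These shares are 4.76%, 6.98% and 14.0%, close to the 3.97%, 7.35% and 15.7% of all genes. The median log2 differences of the list were −0.09, −0.10 and 0.05. Between the OVOL lines 0 of 42 were past 2-fold, beside 3.08% of all 12188 genes.

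ARHGEF16 (ephexin4), a guanine nucleotide exchange factor that binds EPHA2, had the largest difference of the list. It was at 0.434 FPKM in PC3-EMT14, 5.87 in the OVOL1 line, 11.4 in the OVOL2 line and 16.2 in PC3-Epi (log2 3.76, 4.73 and 5.19). GRB7, an SH2 adaptor of receptor tyrosine kinases, was at 2.96, 7.65, 14.3 and 9.16 FPKM (log2 1.37, 2.28 and 1.60). VAV3, a guanine nucleotide exchange factor, was at 0.403, 0.655, 1.27 and 1.04 FPKM and past 2-fold in the OVOL2 line and PC3-Epi. All 3 genes were lowest in PC3-EMT14. ARHGEF16 and VAV3 passed the floor only through the other lines, and with 1 FPKM added the counts of the list were 2 for OVOL2 and 5 for PC3-Epi.

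The remaining differences past 2-fold were seen in PC3-Epi. LYN, a Src family kinase, was at 3.15 FPKM in PC3-EMT14 and 9.88 in PC3-Epi (log2 1.65). MMP14, a membrane protease that cleaves EPHA2, was at 115 FPKM in PC3-EMT14, 58.2 in the OVOL1 line, 72.0 in the OVOL2 line and 21.9 in PC3-Epi (log2 −0.98, −0.66 and −2.42). The adaptor SHC1 was at 75.5, 62.9, 47.2 and 27.2 FPKM (log2 −0.26 and −0.66 in the OVOL lines), with PC3-Epi past 2-fold below the 77.2 FPKM of PC3-EMT14 in its own table. The protease ADAM10, which sheds ephrins, was at 12.1, 11.9, 10.7 and 14.0 FPKM. The GTPases RHOA and RAC1, through which Eph receptors act on the cytoskeleton, were at 235, 254, 228 and 250 FPKM and at 76.9, 73.8, 72.8 and 74.8 FPKM. No gene of the Ras and small GTPase regulators, the phosphatase and turnover group or the SAM and PDZ partners was past 2-fold against PC3-EMT14.

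**Figure D5:**
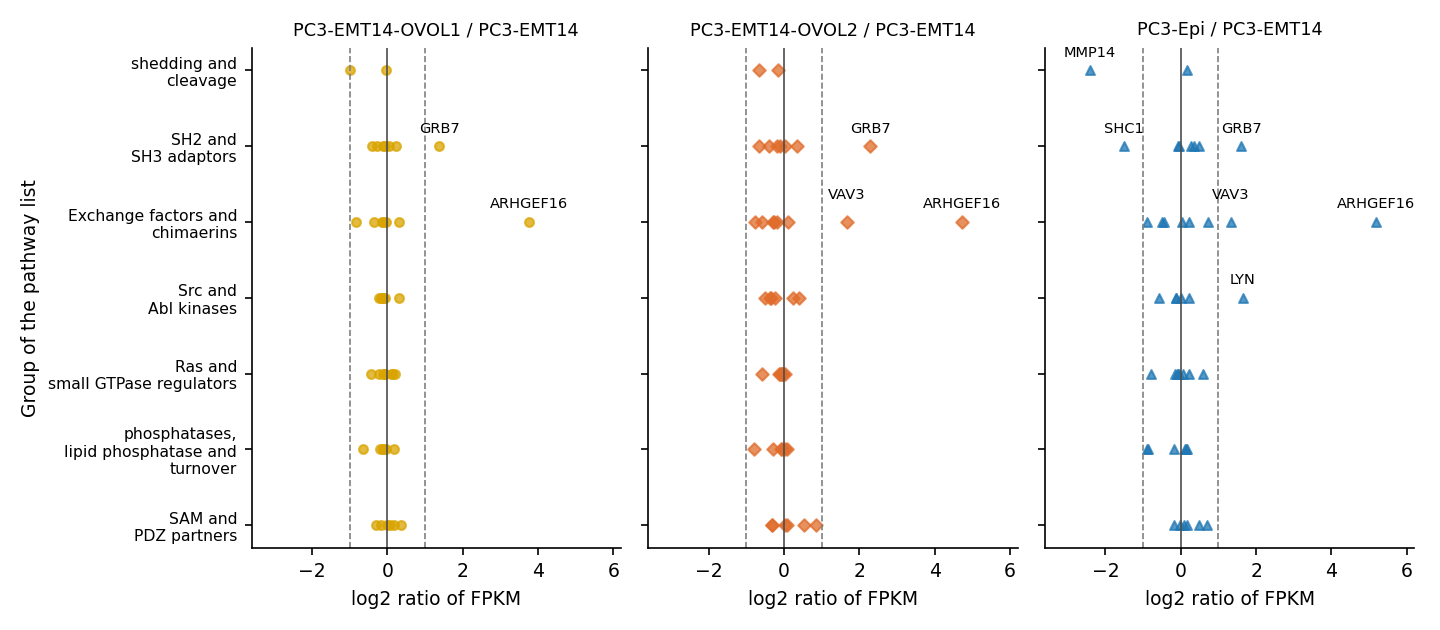
log2 ratio of FPKM (horizontal axis) for the genes of the signalling list with at least 1 FPKM in a line, by group (vertical axis) and with 1 panel per comparison with PC3-EMT14. Genes past the dashed 2-fold lines are named: ARHGEF16 and GRB7 lie to the right in every panel, and MMP14 and SHC1 to the left in the PC3-Epi panel.

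The genes most like the 3 receptors with the largest differences were sought over the 3 log2 differences from PC3-EMT14, by the root mean square gap among the 11247 genes of at least 1 FPKM in every line. That floor leaves out genes listed as low in one line, as these 3 receptors are themselves. Within it, nearest to EPHA1 were LSR (log2 4.38, 4.82 and 5.39, gap 0.895), which encodes a receptor at tricellular junctions, then S100A14 (gap 0.981) and LAD1 (gap 1.36). Nearest to EPHA4 within it were COL6A3 (log2 −1.70, −2.12 and −3.19, gap 0.138), a collagen VI chain, then TAGLN3 (gap 0.412) and MSRB3 (gap 0.427). Nearest to EPHA5 within it were MSMP (gap 0.777), REXO1 (gap 0.833) and EDIL3 (gap 0.862). Among the 12446 genes of at least 1 FPKM in any line, a floor added after the data were seen, nearer genes were found. For EPHA1 the first was then MARVELD3 (log2 3.71, 5.13 and 6.94, gap 0.258), which encodes a tight junction protein, followed by NCCRP1 (gap 0.363). COL6A3 stayed first for EPHA4, and TIE1 (gap 0.381) was first for EPHA5. The likeness rests on 3 comparisons that share their PC3-EMT14 samples.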

How the data were processed

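RNA-seq of 10 samples in 4 PC3 lines was used, grouped by the sample labels. Reads were aligned by the authors to hg19 (UCSC) with TopHat, and lines were compared in pairs by Cuffdiff, with upper-quartile normalization, compatible hits, and corrections for multi-mapped reads and sequence bias. The deposited FPKM values are 1 per line and table, pooled over samples by the authors, in 4 gene tables and 4 isoform tables. The tables also hold the authors' own fold changes, test statistics, p-values and q-values, which were not used. Depth is unknown.

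Log2 ratios of FPKM were computed within a table, without a pseudocount, in Python 3.11.15 with numpy 2.4.6 and pandas 2.3.3, and drawn with matplotlib 3.10.9. Genes at the floor (1 FPKM in the higher line) and past 2-fold were counted over the whole table. This count was run on simulated data with planted differences well past 2-fold in genes above the floor. That run checks the code only and does not show how reliable the count is near the floor. Levels quoted for PC3-EMT14 come from the OVOL1 table unless a value is set beside PC3-Epi alone. Genes listed at 0 in one line count as past 2-fold and numbered 86, 81, 97 and 75 in the OVOL1, OVOL2, PC3-Epi and OVOL2 against OVOL1 comparisons. Positions are those of the tables on hg19, counted from 1, and annotation is GENCODE 44 on GRCh37.

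The genes named are the 10 members, family genes of at least 1 FPKM, pathway genes past 2-fold, label and cell type markers, and the 3 genes most like each member past 2-fold in all comparisons with PC3-EMT14, among genes of at least 1 FPKM in every line. Outside this rule, and after their values were seen, ADAM10, RHOA, RAC1, the family genes below 1 FPKM, the genes of the EPHA1 locus, and MARVELD3, NCCRP1 and TIE1 were named. The members and lists were chosen with earlier results of these data known. Alternatives varied the floor, the fold limit, a pseudocount, centring, the PC3-EMT14 value, shared entries, status, isoform sums and the isoform limit.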

Additional observations from a re-analysis of the deposited data

How the results depend on the processing

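With a floor of 5 FPKM the count of the 10 genes past 2-fold was 0 for OVOL1, 2 for OVOL2 and 3 for PC3-Epi, in place of 3, 4 and 5. A 4-fold limit gave 1 for OVOL1, 3 for OVOL2, 3 for PC3-Epi and 0 between the OVOL lines, where the count was 1 at 2-fold. A 1.5-fold limit gave 3 for OVOL1, 6 for OVOL2 and 7 for PC3-Epi. A pseudocount of 1 FPKM gave 1 for OVOL1 and 0 between the OVOL lines. Between the OVOL lines no floor gave 2 and a 1.5-fold limit gave 2.

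For the signalling list, no floor gave 4 for OVOL1, 9 for PC3-Epi and 2 between the OVOL lines, in place of 2, 6 and 0. A floor of 5 FPKM gave 2 for OVOL2 and 5 for PC3-Epi. A 1.5-fold limit gave 5 for OVOL1, 9 for OVOL2, 13 for PC3-Epi and 3 between the OVOL lines, in place of 2, 3, 6 and 0. A 4-fold limit gave 1 for OVOL1, 2 for OVOL2 and 2 for PC3-Epi. With an isoform limit of 10 percentage points 1 gene, EFNA1, was counted in the OVOL2 comparison. Fewer or more genes pass by construction of these limits.

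Of 280 log2 differences of single genes under the alternatives, 265 were labelled the same and 15 moved, all with a pseudocount. A value labelled the same could still shift, as for EPHA5 between the OVOL lines, from −1.93 to −1.45 with 0.1 FPKM added. Of the differences past 2-fold, 0 changed sign. Of the others 2 changed sign, both near 0. EFNA1 in PC3-Epi went from −0.02 to 0.01 against the mean PC3-EMT14 value of the 3 tables, and EFNB1 between the OVOL lines from −0.04 to 0.00 when centred on the median of all genes. The cause was not tested. No paired analysis was possible because each line has 1 pooled value per table, and leaving out replicates could not be run for the same reason. Depth is unknown, so what low levels such as those of EPHA4 and EPHA5 can resolve is unknown too.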

Other observations

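EFNA4, EFNA3 and EFNA1 lie in succession on chromosome 1 (hg19, 155036213 to 155042029, 155051348 to 155060014 and 155100349 to 155107386). In PC3-Epi EFNA4 was at 11.7 FPKM, EFNA3 at 8.53 and EFNA1 at 7.95, beside 14.8, 6.08 and 8.07 in PC3-EMT14 in the same table.

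KDR, the endothelial VEGF receptor, was at 15.7 FPKM in PC3-EMT14, 7.26 in PC3-EMT14-OVOL1, 3.68 in PC3-EMT14-OVOL2 and 0.156 in PC3-Epi. The defining endothelial genes CDH5 and VWF were under 0.1 FPKM in every line, and PECAM1 was at 6.87, 5.10, 5.16 and 3.47 FPKM.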
